A study of Rattus norvegicus with 4 samples.

Results

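The miRNA content of matrix vesicles from growth zone chondrocytes (GC-MVs) was set against that of the cells that produced them (GC-cells), using 1 sequenced library of each out of the 4 libraries of the study. Both came from costochondral cartilage of male Sprague Dawley rats, for which the labels give no treatment and no genetic change, and the age of the animals is not given in the sources used here. The growth zone is the prehypertrophic and upper hypertrophic part of the growth plate, and the cells were used at passage 4, in medium with ascorbic acid and 10% fetal bovine serum. The vesicles were freed from the matrix of the cell layer by trypsin and collected in the spin at 184000 g for 70 min, after spins at 500 g and 21000 g. Counts were turned into percents of the miRNA reads of their library, and the ratio of these percents, GC-MVs over GC-cells, is the measure used throughout. The other libraries, from resting zone chondrocytes (RC-cells) and their vesicles (RC-MVs), are given beside it where the zones are compared.

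Matrix vesicles are small membrane-bound particles that chondrocytes anchor in their extracellular matrix, where the first mineral crystals of the growth plate form. A miRNA is cut from a hairpin precursor, usually by Drosha in the nucleus and Dicer in the cytoplasm, and either of its arms, named 5p and 3p, can be loaded into an Argonaute protein. The bases 2 to 8 of the loaded arm, called the seed, direct it to target mRNAs, so miRNAs with a common seed form a family. Many miRNA genes lie in genomic clusters that are transcribed together, and several such clusters are imprinted or lie on the X chromosome.

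The GC-cell library held 7414467 miRNA reads and the GC-MV library 982543, so that the cells were read 7.55 times as deeply. Of 740 names, 501 had a read in GC-cells and 431 in GC-MVs. A count of 3 reads, the limit that a count of 0 allows, was 4.05e-05% of the miRNA reads in GC-cells and 0.000305% in GC-MVs. Each side was a single library, so no replicate check and no test could be made. The intervals in parentheses are at the 95% level, by the exact Clopper-Pearson method for ratios and the Wilson method for percents, and cover counting error only.

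In both libraries, 275 miRNAs reached 10 reads, and together they held 99.9% of the GC-cell reads and 99.8% of the GC-MV reads. Of these, 83 (30.2%) had a percent in GC-MVs that was higher by 2-fold or more and 61 (22.2%) one that was lower by 2-fold or more, while 131 lay between. Either way, 52.4% passed 2-fold. The median log2 ratio was 0.19, and the central 80% of the miRNAs lay between -1.79 and 2.12. With TMM scaling, which centres the ratios differently, 68 were higher and 71 lower, with a median of -0.04. With a minimum of 10 reads in GC-cells only and a pseudocount of 0.5 reads, 95 of 395 miRNAs were higher and 117 lower. The 83 miRNAs took 31.6% of the GC-MV reads against 6.94% of the GC-cell reads, whereas the 61 took 23.2% against 58.5%. At the edges of the call, miR-341 was 2.02-fold higher and miR-151-3p 1.97-fold, and miR-103-3p was 2.01-fold lower and miR-30e-3p 1.97-fold.

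The mature sequences of those of the 275 miRNAs with the largest and smallest ratios are shown first, since among these they separate vesicle from cell most. All sequences are RefSeq entries (GRCr8), found for 251 of the 275 miRNAs, and the capitals mark the seed. The following had the highest percents in GC-MVs relative to GC-cells, in falling order of the ratio, beside miR-320-3p, which ranked next to miR-122-5p:
miR-122-5p: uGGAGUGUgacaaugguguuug
miR-423-5p: uGAGGGGCagagagcgagacuuuu
miR-1306-3p: gACGUUGGcucugguggugaug
miR-139-5p: uCUACAGUgcacgugucuccag
miR-139-3p: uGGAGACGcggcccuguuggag
miR-129-5p: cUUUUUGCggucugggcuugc
miR-760-3p: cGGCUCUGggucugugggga
miR-92a-1-5p: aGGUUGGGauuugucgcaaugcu
miR-615: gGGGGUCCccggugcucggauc
miR-134-5p: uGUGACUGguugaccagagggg
miR-206-3p: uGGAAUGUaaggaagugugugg

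Among the same 275, the lowest percents in GC-MVs relative to GC-cells belonged to the miRNAs below, beginning with the lowest and beside miR-674-3p:
miR-374-5p: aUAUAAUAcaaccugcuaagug
miR-411-3p: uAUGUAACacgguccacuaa
let-7f-5p: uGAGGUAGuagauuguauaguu
miR-450a-5p: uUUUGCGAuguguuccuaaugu
miR-411-5p: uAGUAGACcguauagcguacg
miR-26b-5p: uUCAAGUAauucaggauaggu
miR-98-5p: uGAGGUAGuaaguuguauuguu
miR-493-5p: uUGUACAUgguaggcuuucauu
miR-20a-5p: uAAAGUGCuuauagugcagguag
miR-872-5p: aAGGUUACuuguuaguucagg
let-7a-1-3p: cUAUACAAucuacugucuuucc

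Within these lists the seed GAGGUAG of the let-7 family occurred in both let-7f-5p and miR-98-5p, and no other seed occurred more than once. The G+C content ran from 45.5% to 77.3% in the first list and from 31.8% to 47.6% in the other.

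A few miRNAs made up most of both libraries, and miR-21-5p and miR-143-3p held the first places in both, in opposite order. In GC-cells, miR-21-5p (Mir21, chromosome 10), a miRNA abundant in many cultured cells, held 41.9% of the reads (3106949 reads), and in GC-MVs 17.9% (175816 reads), which was 2.34-fold lower (2.33 to 2.35). The first place in GC-MVs went to miR-143-3p (Mir143, chromosome 18), a miRNA of mesenchymal and smooth muscle cells, with 32.4% (317902 reads) against 20.7% in GC-cells (1533595 reads). For miR-22-3p (Mir22, chromosome 10), the 166652 reads in GC-MVs outnumbered the 164597 reads of the deeper GC-cell library. Its percent was thus 17.0% in the vesicles against 2.22% in the cells, which was 7.64-fold higher (7.59 to 7.69). These 3 miRNAs, miR-143-3p, miR-21-5p and miR-22-3p, held 67.2% of the GC-MV reads, and the 3 most abundant of GC-cells, with let-7i-5p in place of miR-22-3p, held 67.5% of theirs.

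The miRNAs ranked 4 to 10 differed more. In GC-MVs they were miR-127-3p, let-7i-5p, miR-148a-3p, miR-152-3p, miR-134-5p, miR-320-3p and miR-122-5p. Of these, miR-134-5p ranked 42 in GC-cells, miR-320-3p ranked 64 and miR-122-5p ranked 332. In the other direction, let-7f-5p ranked 6 in GC-cells and 44 in GC-MVs, and miR-125b-5p ranked 10 and 32. The percents of let-7f-5p were 2.11% in GC-cells and 0.190% in GC-MVs.

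**Figure D1:**
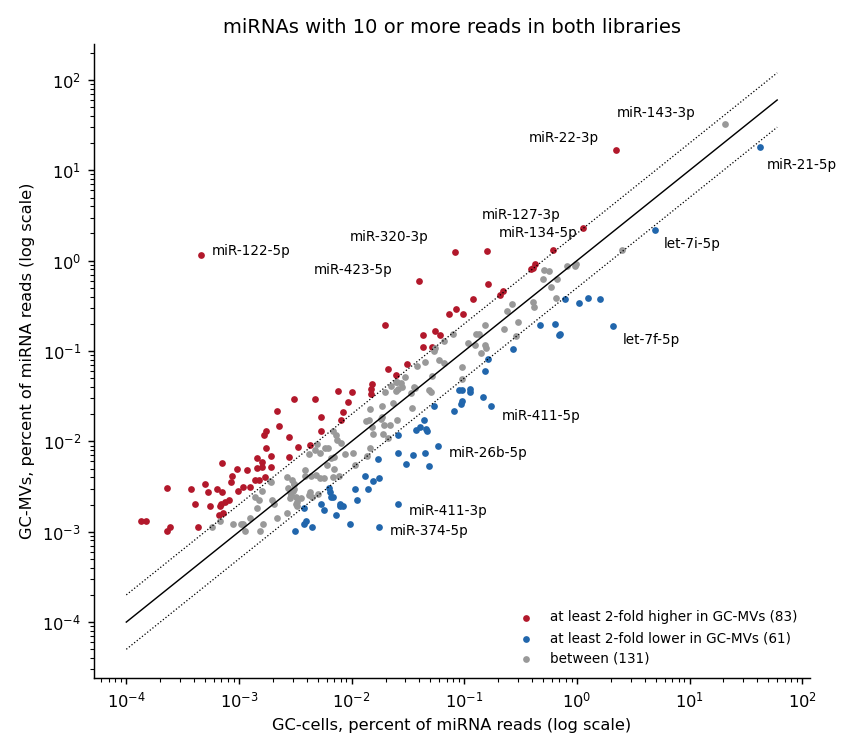
Percent of all miRNA reads in GC-cells (x axis) and GC-MVs (y axis), both on log scales, for the 275 miRNAs that reached 10 reads in both. The solid line marks equal percents and the dotted lines 2-fold; the 83 red points lie above and the 61 blue points below, with miR-122-5p farthest from the line.

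Among the 275 miRNAs, the ratio of miR-122-5p (Mir122, chromosome 18), the dominant miRNA of hepatocytes, was the highest. The miRNA had 34 reads in GC-cells and 11225 in GC-MVs, 1.14% of the vesicle reads, and its ratio was 2491 (1782 to 3599). The next ratio among the 275 belonged to miR-320-3p (Mir320a, chromosome 15), with 6111 reads in GC-cells and 12308 in GC-MVs, which was 15.2-fold higher (14.7 to 15.7). This miRNA is made from a capped precursor that bypasses Drosha.

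The ratio of miR-423-5p (Mir423, chromosome 10) was 15.0 (14.3 to 15.6), from 2922 reads in GC-cells and 5789 in GC-MVs. Well-covered miRNAs with ratios near 8 to 10 were miR-129-5p, miR-760-3p, miR-139-5p and miR-134-5p. The reads of miR-129-5p were 1482 in GC-cells and 1914 in GC-MVs, those of miR-760-3p 229 and 289, and those of miR-139-5p 162 and 212. Few reads lay behind miR-1306-3p (17 and 30 reads), miR-139-3p (10 and 13), miR-92a-1-5p (11 and 13) and miR-206-3p (28 and 29), a miRNA of skeletal muscle. Their intervals were wide, for miR-92a-1-5p from 3.69 to 22.0. A miRNA with under 76 reads in GC-cells could reach 10 reads in GC-MVs only with a higher percent there. The minimum itself thus selected high ratios for these miRNAs, and the lower ends of their intervals, all above 2-fold, add no support.

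Of the 275 miRNAs, the largest difference downward was that of miR-374-5p (Mir374b, chromosome X), with 1288 reads in GC-cells and 11 in GC-MVs, which was 15.5-fold lower (8.64 to 31.2). Both arms of miR-411 (Mir411, chromosome 6) followed the same way. The 3p arm had 1923 reads in GC-cells and 20 in GC-MVs and was 12.7-fold lower (8.23 to 20.9), and the 5p arm had 12759 and 242 and was 6.99-fold lower (6.15 to 7.97). The most abundant of these miRNAs was let-7f-5p, with 156626 reads in GC-cells and 1866 in GC-MVs, an 11.1-fold lower percent (10.6 to 11.6). miR-450a-5p of the X chromosome was 9.03-fold lower (6.89 to 12.1) and miR-26b-5p 6.61-fold lower (5.35 to 8.27).

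**Figure D2:**
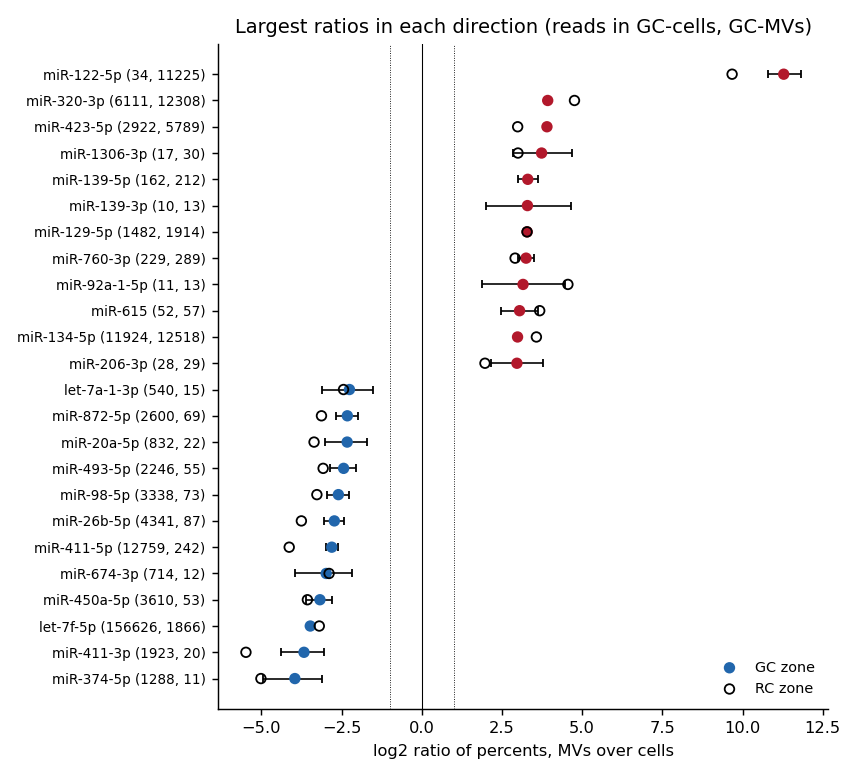
Log2 ratio of percents, MVs over cells, for the 12 miRNAs with the largest and the 12 with the smallest ratio in the growth zone (filled points, with bars for the 95% counting interval) and the ratio of the same miRNA in the resting zone (open circles, where both libraries had at least 10 reads). Reads in GC-cells and GC-MVs stand beside each name, and every open circle lies on the same side of 0 as its filled point.

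In the resting zone, which was read in separate libraries, these miRNAs lay on the same side of an equal percent. The resting zone log2 ratio was 9.67 for miR-122-5p against 11.28 in the growth zone, 4.76 against 3.93 for miR-320-3p and 2.99 against 3.90 for miR-423-5p. Downward, it was -5.01 against -3.96 for miR-374-5p, -5.48 against -3.67 for miR-411-3p and -3.19 against -3.48 for let-7f-5p. Where all 4 libraries reached 10 reads (262 miRNAs), the growth zone ratio was the farther from equality for 72, and the resting zone ratio for the others. The difference between the zones was not tested.

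The minimum of 10 reads in both libraries left out miRNAs that were nearly absent from one of them. There were 120 miRNAs with at least 10 reads in GC-cells and fewer than 10 in GC-MVs. For 38 of them, those with at least 76 reads in GC-cells, the same percent in GC-MVs would have given at least 10 reads. The farthest from this was miR-365-3p (chromosome 10), named here after its values were seen, with 1466 reads in GC-cells and 2 in GC-MVs where an equal percent would have given 194. Its percent was 97.1-fold lower (26.8 to 803), an interval that overlapped that of miR-374-5p, and its 5p arm, with 167 and 144 reads, was 6.51-fold higher in GC-MVs (5.17 to 8.18).

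Of the miRNAs with no read in GC-MVs, miR-3559-3p had 163 reads in GC-cells, miR-374-3p 160, miR-449a-5p 155, miR-32-5p 134, miR-301a-3p 73 and miR-3558-3p 38. Set against 3 reads, miR-3559-3p was at least 7.20-fold lower in GC-MVs and miR-374-3p at least 7.07-fold, and the lower ends of the counting intervals were 5.79 and 5.68. With miR-374-3p, both arms of the miR-374 hairpin were thus low in the vesicles.

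Conversely, 9 miRNAs had at least 10 reads in GC-MVs and fewer than 10 in GC-cells. The first of them by reads are miRNAs of blood cells. miR-451-5p (chromosome 10), which accumulates in red blood cells and is cut by Argonaute 2 in place of Dicer, had 8 reads in GC-cells and 1401 in GC-MVs, and miR-144-3p from the same cluster had 3 and 153. Their ratios were 1322 (669 to 3067) and 385 (129 to 1887). miR-223-3p of myeloid cells had 0 reads in GC-cells and 114 in GC-MVs, at least 287-fold higher when set against 3 reads (the lower end of the counting interval was 229), and miR-142-3p of leukocytes had 6 and 101.

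In full, 3 erythroid miRNAs summed to 12 reads in GC-cells and 1558 in GC-MVs, or 0.159% of the vesicle reads. The 5 leukocyte and platelet miRNAs summed to 697 reads in GC-cells and 327 in GC-MVs. Among these, miR-142-3p, miR-142-5p, miR-150-5p and miR-223-3p were higher in GC-MVs, and miR-155-5p, with 618 and 19 reads, was 4.31-fold lower. Of the miRNAs that mark liver, miR-192-5p had a log2 ratio of 0.04 (2504 and 341 reads) and miR-194-5p of -0.93, which passed 2-fold lower with TMM scaling. No read of the 3p arm of miR-122 was found in either library. The muscle miRNAs went both ways. miR-133a-3p had 3 reads in GC-cells and 28 in GC-MVs, and miR-1-3p 21 and 8, whereas miR-499-5p, with the most reads of that list, had 584 and 19 and was 4.07-fold lower (2.58 to 6.81).

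The resting zone libraries held 5 reads of miR-451-5p in the cells and 681 in the vesicles, and 32 and 4447 of miR-122-5p. The medium of both zones held fetal bovine serum, and the study's methods describe it as free of exosomes. What part serum or cells of other types had in these ratios was not tested, and in such libraries fewer cells of a type cannot be told apart from less RNA per cell. The miRNAs of the labelled cells were present, as miR-140-3p of cartilage had 37484 reads in GC-cells and 7799 in GC-MVs. Both arms of miR-675, which is processed from the H19 transcript, had at most 1 read in either library.

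The let-7 family, whose members accumulate as cells differentiate, held 9.89% of the GC-cell reads and 4.71% of the GC-MV reads, a 2.10-fold lower sum. Its 9 guides carry an identical seed, of which 1 was higher by 2-fold or more, 6 were lower by as much and 2 lay between, beside 30.2% higher and 22.2% lower over all miRNAs, with a median log2 ratio of -1.30 beside 0.19 over all 275 miRNAs. The ratios of the members spread over a 4.57 range on the log2 scale. This was the widest of the 27 seed families that could be formed from RefSeq sequences, in which the median range was 0.75. A range grows with the number of members, however. Only 7 of the 27 families had 3 or more members, against 9 in let-7, so its range cannot be compared directly with that median. The sequences are given in falling order of the ratio:
let-7b-5p: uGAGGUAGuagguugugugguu
let-7d-5p: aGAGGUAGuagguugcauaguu
let-7c-5p: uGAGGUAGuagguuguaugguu
let-7i-5p: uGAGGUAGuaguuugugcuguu
let-7a-5p: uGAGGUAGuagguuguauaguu
let-7e-5p: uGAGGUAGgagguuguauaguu
let-7g-5p: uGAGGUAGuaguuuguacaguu
miR-98-5p: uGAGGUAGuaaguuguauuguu
let-7f-5p: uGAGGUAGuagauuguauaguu

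The member at the top, let-7b-5p, had 31685 reads in GC-cells and 8940 in GC-MVs and was 2.13-fold higher (2.08 to 2.18), or 1.82-fold with TMM scaling, which centres the ratios differently. The member at the bottom, let-7f-5p, differs from let-7a-5p only by G12A, with positions counted from 1 at the 5′ end and the base of let-7a-5p given first, and let-7b-5p differs from it by A17G and A19G. The log2 ratios were 1.09 for let-7b-5p, -1.30 for let-7a-5p and -3.48 for let-7f-5p. let-7c-5p, which differs by A19G, had a log2 ratio of -0.13 with 70766 reads in GC-cells and 8565 in GC-MVs.

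Between these lay let-7d-5p (U1A and U16C) at 0.18, let-7i-5p (G12U, A17G, U18C and A19U) at -1.17, let-7e-5p (U9G) at -1.67, let-7g-5p (G12U and U18C) at -2.19 and miR-98-5p (G11A and A19U) at -2.60. The members with 31.8% G+C, let-7f-5p and miR-98-5p, were the lowest, and let-7b-5p, with 45.5%, was the highest. The members at 40.9% G+C ranged from -1.67 to 0.18. Because reads of members that differ by 1 base could have been assigned to the wrong name, each of these values is uncertain to an unknown degree.

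In the resting zone the 3 members with the largest log2 ratio were again let-7b-5p (1.36), let-7c-5p (0.49) and let-7d-5p (-0.41), and miR-98-5p (-3.27) and let-7f-5p (-3.19) were the lowest. Of the 12 passenger strands of the family, 6 reached 10 reads in both. Of these 6, let-7c-2-3p and let-7a-1-3p were at least 2-fold lower in GC-MVs, at log2 ratios of -1.96 and -2.25, beside 22.2% over all miRNAs, and the other 4 lay between.

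In some other families the members lay close together, although the range was over 1 on the log2 scale in 10 of the 27 seed families. All 4 guides of the miR-181 family were at least 2-fold higher in GC-MVs, beside 30.2% over all miRNAs. The log2 ratios were 1.78 for miR-181a-5p (11951 reads in GC-cells and 5449 in GC-MVs), 1.78 for miR-181d-5p, 1.52 for miR-181c-5p (50 and 19) and 1.10 for miR-181b-5p. With under 76 reads in GC-cells, miR-181c-5p could reach the minimum of 10 reads only with a higher percent in GC-MVs, so it adds no support. With TMM scaling miR-181b-5p was 1.84-fold higher and thus under 2-fold. The summed percent of the family was 0.219% in GC-cells and 0.686% in GC-MVs. The miR-34 family, which p53 induces, was lower, and its members hardly differed from one another. The log2 ratios were -1.78 for miR-34a-5p (1897 and 73 reads), -1.79 for miR-34c-5p (7139 and 273) and -1.82 for miR-34b-5p (3445 and 129), although the first comes from another locus than the others. The related miR-449a-5p had 155 reads in GC-cells and none in GC-MVs.

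Both members of the miR-26 family were lower, miR-26a-5p by 4.58-fold (4.35 to 4.82; 51712 and 1497 reads) and miR-26b-5p by 6.61-fold. In the miR-30 family 3 of 5 were 2-fold or more lower, beside 22.2% over all miRNAs, and none was 2-fold or more higher, from miR-30d-5p, at a log2 ratio of -1.68, to miR-30b-5p, at 0.88. In the miR-125 family, miR-125a-5p was 4.67-fold lower (4.16 to 5.24) and miR-125b-5p 3.06-fold lower (2.95 to 3.17), and miR-351 had a log2 ratio of -0.95. The family of miR-99 and miR-100, which is encoded beside members of the miR-125 and let-7 families, had 3 log2 ratios between -0.21 and 0.43.

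The family of miR-148 and miR-152 was split. miR-152-3p (chromosome 10) was 2.12-fold higher in GC-MVs (2.08 to 2.16), from 45425 reads in GC-cells to 12745 in GC-MVs, whereas miR-148a-3p (187622 and 12940 reads) and miR-148b-3p (7071 and 479) had log2 ratios of -0.94 and -0.97. With TMM scaling from edgeR, miR-152-3p was 1.81-fold higher and the other 2 passed 2-fold lower. The members share their seed, and their sequences were:
miR-152-3p: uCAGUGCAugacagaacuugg
miR-148a-3p: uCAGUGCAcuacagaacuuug
miR-148b-3p: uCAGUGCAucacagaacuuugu

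The miR-17 seed family was also divided, with miR-93-5p at a log2 ratio of 0.53, miR-17-5p at 0.26, miR-106b-5p at -0.41 and miR-20a-5p at -2.33. The last had 832 reads in GC-cells and 22 in GC-MVs. Of the family of miR-15 and miR-16, which regulates cell cycle genes, miR-16-5p had 3582 reads in GC-cells and a log2 ratio of -0.39, and miR-15b-5p was 3.07-fold lower (1.64 to 6.50). In the miR-29 family, known for its collagen targets, miR-29a-3p (30400 and 3433 reads) had a log2 ratio of -0.23 and miR-29b-3p of 1.09.

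**Figure D3:**
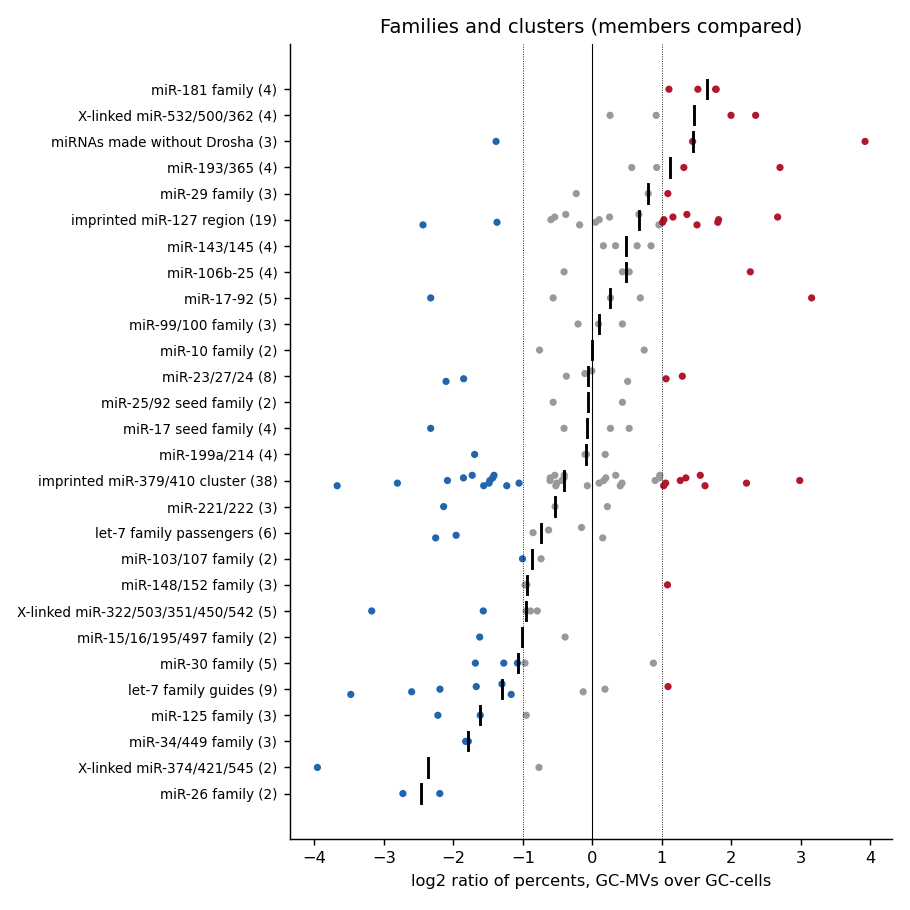
Log2 ratio of percents, GC-MVs over GC-cells, for each miRNA that reached 10 reads in both, by family or cluster (number of such miRNAs in parentheses), in the order of the median, which the black bars mark. Red and blue points are at least 2-fold higher and lower; the miR-181 family lies wholly to the right, the miR-34 and miR-26 families wholly to the left, and the let-7 family and both imprinted groups span both sides.

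Genomic clusters have members that are cut from a shared transcript, and some of them held ratios in both directions. The largest lies in the imprinted Dlk1-Dio3 domain on chromosome 6, whose miRNAs are expressed from the maternal chromosome. Its region around miR-127 had 19 miRNAs that reached 10 reads in both, of which 8 were 2-fold or more higher and 2 as much lower in GC-MVs, with a median log2 ratio of 0.67, or 0.25 with a minimum of 1 read in both. With TMM scaling, 5 of the 19 were higher and 2 lower. The neighbouring cluster from miR-379 to miR-410 had 38, of which 8 were higher and 12 lower, with a median of -0.40 and a range from -3.67 to 2.99. These counts stand beside 30.2% higher and 22.2% lower over all 275 miRNAs. The summed percents were nonetheless higher in GC-MVs for both, 3.24% against 1.77% and 3.94% against 2.30%.

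Many of these reads came from a few abundant miRNAs. In the first region miR-127-3p had 83281 reads in GC-cells and 22543 in GC-MVs and was 2.04-fold higher (2.01 to 2.07), or 1.75-fold with TMM scaling. At its extremes, miR-770-3p was 6.35-fold higher (5.42 to 7.44; 348 and 293 reads) and miR-493-5p 5.41-fold lower (4.14 to 7.21; 2246 and 55 reads). In the other cluster miR-134-5p, known as a regulator of dendritic spines, was 7.92-fold higher (7.73 to 8.12; 11924 and 12518 reads). Its most abundant member in GC-cells, miR-379-5p, had 30842 reads and 3019 in GC-MVs, a log2 ratio of -0.44, while miR-381-3p and miR-541-5p were 2.04-fold and 2.08-fold higher, or 1.74-fold and 1.78-fold with TMM scaling.

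On the X chromosome, 2 clusters are given side by side, beside 30.2% higher and 22.2% lower over all miRNAs, and the difference between them was not tested. In the cluster of miR-322, miR-503, miR-351, miR-450a and miR-542, none of 5 miRNAs was 2-fold higher and 2 were 2-fold lower, with a median log2 ratio of -0.95. With TMM scaling all 5 were 2-fold lower, and 4 with size factors. Outside the minimum, miR-503 had 82 reads in GC-cells and 1 in GC-MVs. In the cluster of miR-532, miR-500, miR-501 and miR-362, 2 of 4 were at least 2-fold higher and none lower, with a median of 1.46. There, miR-500-3p had 71 reads in GC-cells and 48 in GC-MVs, and miR-501-3p 208 and 110. With a minimum of 1 read in both libraries this median was 0.26, as miR-532-3p (111 and 5 reads) was 2.94-fold lower (1.22 to 9.24) and miR-362-3p had 136 and 9 reads.

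The cluster of miR-143 and miR-145 was the most abundant, at 21.3% of the GC-cell and 33.1% of the GC-MV reads. Its 4 miRNAs all lay within 2-fold, at log2 ratios of 0.85 for miR-143-5p, 0.65 for miR-143-3p, 0.33 for miR-145-5p and 0.16 for miR-145-3p. In the clusters of miR-23, miR-27 and miR-24, 2 of 8 were at least 2-fold higher and 2 lower, shares near those over all miRNAs. Both copies of miR-27 were the lower ones, with 119128 reads of miR-27b-3p in GC-cells and 3671 in GC-MVs, a 4.30-fold lower percent (4.16 to 4.45), and miR-27a-3p at 3.61-fold lower (3.19 to 4.10). From the same transcripts, miR-23a-3p was 2.09-fold higher (2.02 to 2.16), or 1.79-fold with TMM scaling and 1.90-fold with size factors, and miR-24-3p, with 49682 and 6116 reads, had a log2 ratio of -0.11. The miR-17-92 cluster, known for its role in proliferation, had 5 of its 12 listed members at 10 reads in both, ranging from -2.33 for miR-20a-5p to 3.16 for miR-92a-1-5p.

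Both arms of the same hairpin could be compared for 69 hairpins. The arms are made in equal number from one precursor, and their ratios differed by a median of 1.06 on the log2 scale, with 35 hairpins at a difference of 2-fold or more. The 3p arm had the larger ratio in 39 and the 5p arm in 30. In 3 of these 69 hairpins the arms passed 2-fold in opposite directions. These were miR-125a (-2.22 for the 5p and 1.83 for the 3p arm), miR-34c (-1.79 and 1.44) and miR-485 (1.35 and -1.85), and in miR-125a the arms differed by 16.6-fold. The minimum of 10 reads left out miR-365, whose arms also lay in opposite directions. Its 3p arm, with 2 reads in GC-MVs, was 97.1-fold lower and its 5p arm 6.51-fold higher.

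For miR-140, the miRNA of cartilage that is encoded within the Wwp2 gene, the 5p arm had 5993 reads in GC-cells and 212 in GC-MVs and was 3.75-fold lower (3.27 to 4.32). The 3p arm had 37484 and 7799 and was 1.57-fold higher (1.53 to 1.61). The 3p arm thus made up 86.2% of the miR-140 reads in GC-cells and 97.4% in GC-MVs. The sequences of the arms were:
miR-140-5p: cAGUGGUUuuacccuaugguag
miR-140-3p: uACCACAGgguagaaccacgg

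The other cartilage hairpin, miR-455, had the same order, with log2 ratios of -1.36 for the 5p arm (3255 and 168 reads) and 0.53 for the 3p arm (428 and 82 reads). For miR-22 the 3p arm was at 2.93, and the 5p arm, with 1350 and 175 reads, at -0.03. For miR-199a (chromosome 13), the 5p arm had 92898 reads in GC-cells and 3807 in GC-MVs, a log2 ratio of -1.69, and the 3p arm 73381 and 9050, a log2 ratio of -0.10. In this hairpin the more abundant arm was the 5p arm in GC-cells and the 3p arm in GC-MVs. In miR-148a and miR-423 it was the 5p arm that had the larger ratio, 1.78 against -0.94 and 3.90 against 1.40.

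**Figure D4:**
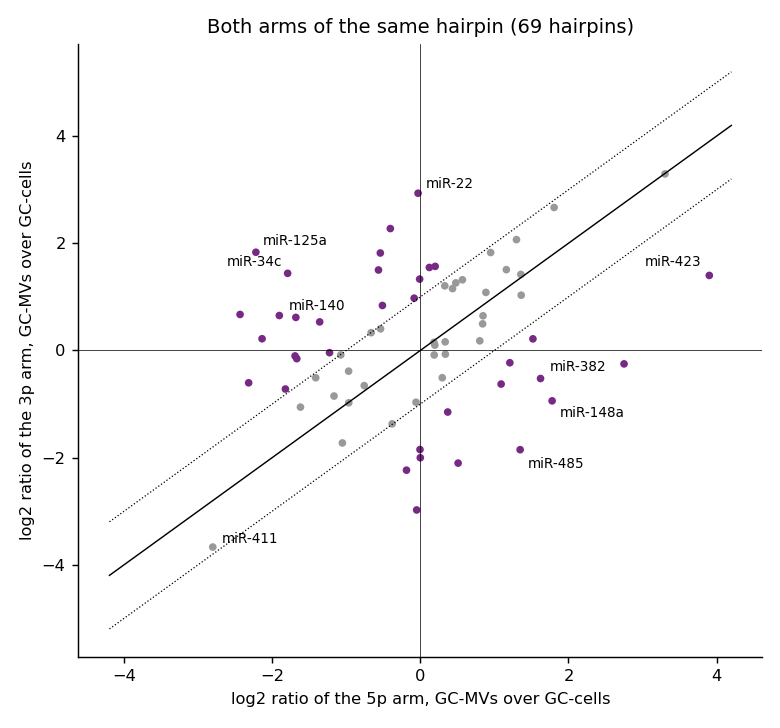
Log2 ratio of percents, GC-MVs over GC-cells, of the 5p arm (x axis) and the 3p arm (y axis) of the 69 hairpins whose arms each reached 10 reads in both. The solid line marks equal ratios and the dotted lines a 2-fold difference; the 35 hairpins that differ by 2-fold or more are purple, with miR-125a, miR-34c and miR-22 among those far above the line.

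The sequences made it possible to describe what the miRNAs of either direction shared. G+C content moved with the ratio. Of the 41 miRNAs with under 40% G+C, 4 were 2-fold or more higher and 26 as much lower in GC-MVs, with a median log2 ratio of -1.34. With TMM scaling these were 2 and 27. From 40% to under 50% there were 89, with 20 higher and 21 lower and a median of -0.10, and from 50% to under 60% there were 83, with 28 and 7 and a median of 0.53. Of the 38 miRNAs with 60% or more, 26 were higher and 2 lower, with a median of 1.53. Their median reads in GC-cells were 194, against 1744 in the bin from 40% to under 50%. Members with under 76 reads there, such as miR-139-3p (10) and miR-615 (52), could enter only with a higher percent in GC-MVs. The count of 26 was thus partly built in by the read minimum. Over all 275 miRNAs, 30.2% were higher and 22.2% lower. The bin from 40% to under 50% lay near the share lower, and the bin from 50% to under 60%, with 33.7% higher, near the share higher.

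The Spearman rho between G+C content and log2 ratio was 0.51 across these 251 miRNAs, which share 2 libraries and are not independent. It was 0.42 for the content of G alone, 0.04 for C, -0.25 for A, -0.34 for U and -0.02 for length. Among the 124 miRNAs with at least 1000 reads in GC-cells rho was 0.51, and without the members of the imprinted domain it was 0.53 (198 miRNAs). In the resting zone it was 0.58 over 238 miRNAs. Between the percent in GC-cells and the log2 ratio, rho was -0.40 over the 275 miRNAs. That percent is the denominator of the ratio. Moreover, the minimum of 10 reads left out 120 miRNAs low in GC-MVs against 9 low in GC-cells. A negative rho was thus partly built in, and nothing is concluded from it. G+C content and percent in GC-cells had a rho of -0.29.

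Exceptions stood on both sides. Under 40% G+C, the miRNAs at least 2-fold higher were miR-29a-5p, miR-29b-3p, miR-337-3p and miR-592, of which the first 2 were 1.98-fold and 1.82-fold higher with TMM scaling, and at 60% or more, those at least 2-fold lower were miR-331-3p and miR-702-3p. Within hairpins whose arms differed in G+C content, the arm with the larger ratio had more G+C in 35 of 56. Within the 27 seed families, which held 69 miRNAs, the member with the largest ratio had more G+C than the one with the smallest in 14, less in 9 and the same in 4. What part base composition had in any ratio was not tested.

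**Figure D5:**
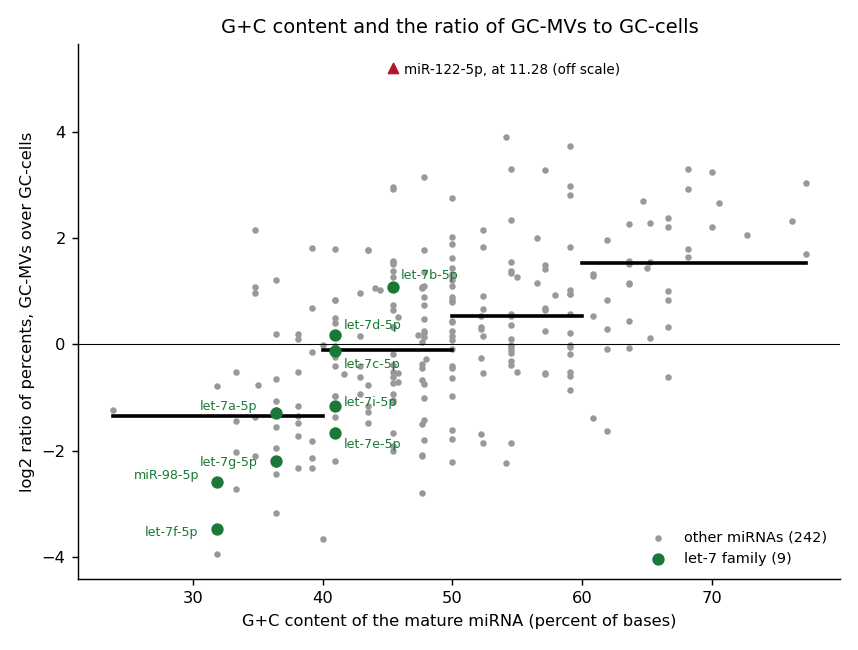
G+C content of the mature miRNA (x axis, percent of bases) against the log2 ratio of percents, GC-MVs over GC-cells (y axis), for 251 miRNAs with a RefSeq sequence. Black bars mark the medians of the bins under 40%, 40% to under 50%, 50% to under 60% and 60% or more, which were -1.34, -0.10, 0.53 and 1.53; green points are the 9 members of the let-7 family, and miR-122-5p lies off the scale.

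The letters GGAG, which occur in a motif described for miRNAs sorted into exosomes, were searched for in the RNA strand of each mature sequence. They were found in 29 of the 251 miRNAs (11.6%), and in 7.89% of the 659 sequences of all names. Of the 29, 14 were 2-fold or more higher in GC-MVs and 1 as much lower, with a median log2 ratio of 0.96 beside 0.15 for the miRNAs without it. The miRNAs with these letters also had more G+C, with a median of 54.5% against 47.8%. Among them were miR-122-5p, miR-139-3p, miR-770-3p and miR-125a-3p. The first 2 of these had 34 and 10 reads in GC-cells. With under 76 reads there, they could reach the minimum of 10 reads only with a higher percent in GC-MVs. The count of higher miRNAs with GGAG was thus partly built in. Of the other letters searched, GGCU was found in 35 of the 251 miRNAs (13.9%) and in 10.8% of the 659 sequences, with 13 higher, 6 lower and a median of -0.0059 beside 0.20 without it. CCCU was found in 17 of the 251 (6.77%; 9.71% of the 659), with 5 higher, 5 lower and a median of 0.12, and UUUU in 13 (5.18%; 6.22% of the 659), with 4 higher, 3 lower and a median of 0.40. The shares of higher and lower miRNAs with CCCU or UUUU were near the 30.2% and 22.2% over all miRNAs. The first base was G in 23 miRNAs, of which 12 were higher and 2 lower, A in 79 (28 and 13), C in 52 (19 and 9) and U in 97 (19 and 32). Over all miRNAs 30.2% were higher and 22.2% lower, and the shares for A (35.4% and 16.5%) and C (36.5% and 17.3%) lay near these. The median reads in GC-cells were 167 with G first and 2062 with U first, so the read minimum could favour high ratios more among those with G.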

How the data were processed

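Small RNA of cells and vesicles from both zones was sequenced, with 1 library for each of the 4 groups. The authors sequenced on an Illumina instrument, aligned reads to Rnor_6.0 with Bowtie2 and tabulated them with miARma-Seq, and they deposited raw read counts per miRNA locus, without normalization. Tool versions and the treatment of reads matching several loci are not given in the sources used here.

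From the deposited counts, loci with equal mature names were summed (774 loci to 740 names, with several loci for 28), so that a read counted at several loci would be counted more than once. Names that are not equal, such as miR-29b and miR-29b-3p, stayed apart. Percents of all miRNA reads and their ratio were computed for miRNAs that reached 10 reads in both, with a call at 2-fold. Zeros were set against 3 reads. PCR copies of a molecule were counted as separate reads. Calls and their intervals were checked on simulated counts that varied by counting error only. That check cannot show differences between replicate libraries or reads assigned to the wrong name.

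The miRNAs named were the 12 largest ratios in each direction, the 10 most abundant of each library, for each list the most abundant, highest and lowest member, up to 6 found in 1 library only or nearly so, and further list members. Families and clusters were lists written by hand, chosen, like the named miRNAs, with earlier results of these data known. Alternatives were TMM scaling, size factors, totals without abundant miRNAs, other read minimums and thresholds, a pseudocount of 0.5 reads and loci kept apart. Gene symbols were matched to the RefSeq table of GRCr8 (452 of 452 genes), from which only chromosomes and sequences were taken. The software was edgeR 4.0.16 and DESeq2 1.42.0 in R 4.3.3, and scipy 1.17.1, pandas 2.3.3, numpy 2.4.6 and matplotlib 3.10.9 in Python 3.11.15.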

Additional observations from a re-analysis of the deposited data

Results flagged for a closer look

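For some miRNAs the ratio of MVs to cells lay on opposite sides of 1 in the growth zone and in the resting zone. Given first are 7 of these, for which both counting intervals excluded 1. With 1 library per group, the difference between the zones was not tested. Growth zone log2 ratios were above 0 and resting zone ratios below 0 for miR-126a-3p (1.57 and -0.72), miR-30b-5p (0.88 and -1.32), miR-93-5p (0.53 and -0.35), miR-221-3p (0.22 and -0.47) and miR-145-3p (0.16 and -0.40). With TMM scaling of the growth zone libraries, the growth zone ratios of miR-145-3p (0.956) and miR-221-3p (0.995) were no longer above 1. The reverse was found for miR-351 (-0.95 and 0.51) and miR-99a-5p (-0.21 and 0.43). Beyond these 7, let-7c-5p (-0.13 and 0.49) and let-7d-5p (0.18 and -0.41) also lay on opposite sides, and the list is not complete. TMM scaling moved the growth zone log2 ratios by -0.22, which is larger in size than the 0.18 of let-7d-5p. The endothelial miR-126a-3p had 1565 reads in GC-cells and 615 in GC-MVs, and 1614 in RC-cells and 167 in RC-MVs, so the cells were alike in reads and the vesicles differed. miR-351 had 1575 and 108 reads in the growth zone and 5430 and 1319 in the resting zone.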

How the results depend on the processing

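The counts of 83 higher and 61 lower miRNAs were within 1.5 times under TMM scaling (68 and 71), size factors (72 and 69), totals without miR-143-3p, miR-21-5p, miR-22-3p and let-7i-5p (82 and 61), a minimum of 30 reads (64 and 41 of 205), intervals wholly beyond 2-fold (58 and 49) and loci kept apart (86 and 69 of 291). TMM moved every log2 ratio by -0.22 and size factors by -0.13, so that 48.9% and 51.1% of the calls were higher, against 57.6%. Under TMM, 15 miRNAs were no longer 2-fold higher, among them let-7b-5p (1.82-fold), miR-152-3p (1.81), miR-181b-5p (1.84), miR-127-3p (1.75), miR-29b-3p (1.82), miR-23a-3p (1.79), miR-29a-5p (1.98), miR-341 (1.73), miR-381-3p (1.74) and miR-541-5p (1.78), and under size factors 11. A minimum of 1 read gave 134 and 105 of 417 miRNAs, no minimum with a pseudocount of 0.5 reads 179 and 120 of 515, and a minimum of 10 reads in GC-cells only, with the same pseudocount, 95 and 117 of 395. At 4-fold, 30 and 22 remained. Of 36 lists, 4 had a median log2 ratio of at least 1 and 9 of at most -1; these were 3 and 12 under TMM and size factors, and with a minimum of 1 read 7 and 8. No called list median changed direction under the scalings, the minimum of 1 read or loci kept apart, and no called ratio of a named miRNA under the scalings or the pseudocount. With at least 30 reads of both arms, 38 hairpins had a median difference of 1.39. The GC-MV library, the shallower, limits what can be said of miRNAs low in vesicles. No paired analysis was possible because each group had 1 library.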
